A study of Homo sapiens with 8 samples.

Results

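The genes of the NMDA and AMPA receptor subunits GRIN1, GRIN2A, GRIN2B, GRIN2C, GRIN2D, GRIN3A, GRIA1, GRIA2, GRIA3 and GRIA4 were followed across 4 groups of SK-N-SH, a cell line from a human neuroblastoma. They were found by symbol, as 10 of the 60659 genes of the count table, with 6 genes for NMDA and 4 for AMPA receptors. Ribosomal RNA-depleted total RNA had been sequenced from 2 biological replicates per group, and all 4 groups had been moved to differentiation medium with 24 h of all-trans retinoic acid (ATRA) at 10 μM. Parental cells with doxycycline (Dox) served as the control of ZMYND8 overexpression, in which Dox induced FLAG-tagged ZMYND8 from a lentiviral construct. The methods say that the transduced cells were selected with a drug, and not whether they were a pool or 1 clone. KD control cells served as the control of ZMYND8 knockdown, and neither of these groups is labelled with Dox. The labels do not say how the knockdown was made in this line. ZMYND8 is a reader of histone marks, and the study asked how it acts in the neuronal differentiation that ATRA starts.

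Counts of ZMYND8 (ENSG00000101040) itself were 3089 and 3612 in parental and 220691 and 182849 in overexpression libraries. They were 3128 and 3374 in KD control and 1641 and 1640 in knockdown libraries, a log2 fold change of -0.94 (SE 0.0556, adjusted p = 2.20e-06, edgeR). Library totals ranged from 38316523 to 56256979 counts. Both marker programs of neuroblastoma lines were present. The summed level of 10 adrenergic markers, among them GATA2, DBH and TBX2, was taken in counts per 1000000 counts of the library (CPM). It was 620 to 642 CPM in the parental and 1260 to 1310 CPM in the overexpression libraries. It was 848 to 879 CPM in the KD control and 650 to 715 CPM in the knockdown libraries. TBX2 went the other way with overexpression, from 12219 and 16143 to 6977 and 5428 counts. The summed level of 10 mesenchymal markers, among them PRRX1, CD44 and VIM, was 9650 to 10200, 3510 to 3720, 4940 to 5110 and 6180 to 6580 CPM in the same order of groups. PRRX1 went against this sum in the knockdown, with 6801 and 7151 counts in KD control and 3473 and 3363 in knockdown libraries.

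Glutamate is the main excitatory transmitter of the brain, and AMPA receptors carry most of the fast current that it evokes. AMPA receptors are assembled from GRIA1 to GRIA4, and the edited GRIA2 subunit makes the channel nearly impermeable to calcium. NMDA receptors open only when glutamate binds and the membrane is depolarized, and they let calcium in. They need the obligatory GRIN1 subunit, which binds glycine, together with glutamate-binding GRIN2 subunits or the glycine-binding GRIN3 subunits. Of the GRIN2 genes, GRIN2B and GRIN2D are known for early development and GRIN2A and GRIN2C for later stages of the brain.

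The members lie on 9 chromosomes in GRCh38. Among the NMDA members, GRIN1 (ENSG00000176884) is at chr9:137139154-137168756, GRIN2A (ENSG00000183454) at chr16:9753404-10182928, and GRIN2B (ENSG00000273079) at chr12:13437942-13982002. GRIN2C (ENSG00000161509) is at chr17:74842023-74861504, GRIN2D (ENSG00000105464) at chr19:48394875-48444931, and GRIN3A (ENSG00000198785) at chr9:101569352-101738647. Among the AMPA members, GRIA1 (ENSG00000155511) is at chr5:153489615-153813869, GRIA2 (ENSG00000120251) at chr4:157204182-157366075, GRIA3 (ENSG00000125675) at chrX:123184153-123490915, and GRIA4 (ENSG00000152578) at chr11:105609994-105982092. Only GRIN2B shares exon bases with other genes, 2.97% of them on the opposite strand. Between 0.03% (GRIN3A) and 2.07% (GRIN1) of a member's exonic 31-base sequences occur elsewhere on the primary contigs. GRIA2 has the most in common with other members, 66 of its 8311 such sequences, so that reads of one subunit could rarely be taken for another.

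Promoter sequences from RefSeq (GRCh38.p14, 250 bases before to 50 after a start) were held for 7 of the members, in 14 windows, and GRIN1, GRIN2C and GRIA3 had no entry. Each window was searched on both strands for AGGTCA, the half-site of retinoic acid receptors, for a pair of these spaced as DR5, and for TTCAGCACC and GGACAGC, both parts of RE1. RE1 is the element that the neuronal gene repressor REST is known to bind. No member window held AGGTCA, which 13.8% of all 35116 windows hold, or DR5 (0.0057%). One GRIA2 window held TTCAGCACC (0.376% of all windows) and GGACAGC (6.03%). There both parts stood 2 bases apart on the reverse strand, the spacing of RE1, an arrangement found in 3 of the 35116 windows. This joint search was added after the separate matches had been seen. The bases before the start are shown for that GRIA2 window, for GRIN3A as another member that was higher in overexpression, and for GRIN2D as the member with the highest level. Capitals mark both parts, which read GGTGCTGAA and GCTGTCC in reverse complement, and a separate GGACAGC on the forward strand. The paired parts begin 228 bases before the start.
GRIA2, chr4:157220369-157220618, forward strand: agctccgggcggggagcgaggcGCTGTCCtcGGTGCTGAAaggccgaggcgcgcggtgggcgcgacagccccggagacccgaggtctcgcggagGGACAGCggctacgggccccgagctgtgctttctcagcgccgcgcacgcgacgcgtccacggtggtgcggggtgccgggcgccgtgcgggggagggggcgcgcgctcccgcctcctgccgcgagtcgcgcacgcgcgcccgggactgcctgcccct
GRIN3A, chr9:101738648-101738897, reverse strand: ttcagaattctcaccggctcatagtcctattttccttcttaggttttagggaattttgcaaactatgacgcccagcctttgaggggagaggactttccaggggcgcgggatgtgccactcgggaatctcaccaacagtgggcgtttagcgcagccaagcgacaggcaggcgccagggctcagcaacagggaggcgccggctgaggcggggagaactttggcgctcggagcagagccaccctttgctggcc
GRIN2D, chr19:48393418-48393667, forward strand: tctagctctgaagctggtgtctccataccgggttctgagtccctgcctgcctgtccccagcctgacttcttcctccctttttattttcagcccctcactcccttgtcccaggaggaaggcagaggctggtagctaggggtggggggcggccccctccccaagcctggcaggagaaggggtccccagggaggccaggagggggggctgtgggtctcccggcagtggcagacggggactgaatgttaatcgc
The printed stretches overlap no exon of GENCODE release 44. The GRIN2D stretch belongs to a RefSeq start outside the counted gene, as it ends at 48393667 and the counted exons begin at 48394875. A match of letters is a description of the sequence, and nothing was measured here about binding.

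Levels of different genes were compared as RPKM, that is CPM per kilobase of summed exon length, with TMM scaling over all 8 libraries. GRIN2D had the highest level of the 10 genes in parental, overexpression and KD control cells, at 2.79 ± 0.205, 2.48 ± 0.155 and 2.21 ± 0.0325 RPKM (SD, n = 2 each). Lengths of the longest coding transcript instead of summed exons changed the top of the order outside parental cells. In overexpression cells GRIN1 (2.15 and 2.44 RPKM), GRIN2D (2.19 and 2.39 RPKM) and GRIA2 (1.72 and 2.66 RPKM) then overlapped. In KD control cells GRIN2D (2.02 and 2.07 RPKM) then overlapped GRIA3 (1.94 and 2.06 RPKM). By summed exons, GRIA1 came next after GRIN2D in parental cells, at 0.219 ± 0.0136 RPKM, and no other member reached 0.1 RPKM in either parental library. GRIA3 and GRIN2C overlapped in their libraries there, as did GRIA2 and GRIN1. GRIN2A and GRIN2B had no counts in the parental libraries.

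In overexpression cells the order after GRIN2D was GRIA3 (1.51 ± 0.0629 RPKM), GRIA2 (1.37 ± 0.416) and GRIN1 (1.07 ± 0.0952), whose neighbours in this order overlapped. GRIA4 (0.475 ± 0.0170 RPKM) and GRIN2A (0.374 ± 0.0366) followed, each apart from its neighbours. The levels of GRIA1, GRIN2C and GRIN3A, between 0.154 and 0.194 RPKM on average, overlapped from neighbour to neighbour. GRIN2B came last at 0.00473 ± 0.00160 RPKM. In KD control cells GRIA3 (1.59 ± 0.0675 RPKM) stood second, far above GRIN1 (0.299 ± 0.000657) and GRIA2 (0.239 ± 0.0939), which overlapped. In knockdown cells GRIA3 (1.66 ± 0.113 RPKM) and GRIN2D (1.6 ± 0.0912) overlapped at the top. Per coding transcript length they stood apart, with GRIA3 at 2.00 and 2.20 and GRIN2D at 1.42 and 1.54 RPKM.

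**Figure D1:**
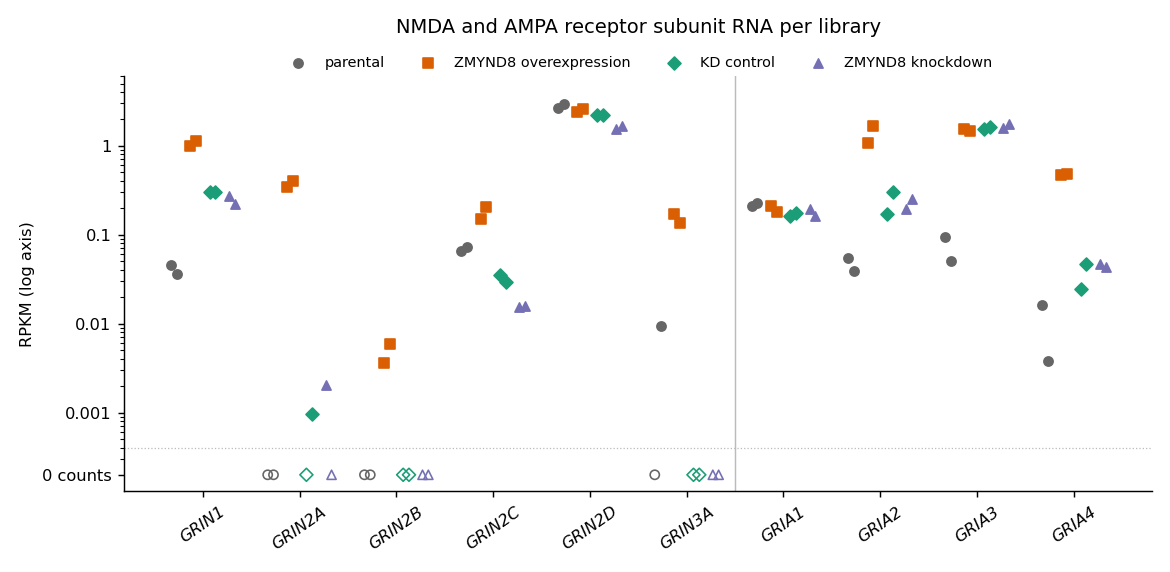
RPKM of each subunit gene in each of the 8 libraries on a log axis, with 1 symbol per library and 1 symbol shape per group. Open symbols at the bottom are libraries with 0 counts. GRIN2D spans 1.53 to 2.93 and GRIA1 0.161 to 0.229 RPKM over all libraries, while GRIN1, GRIA2, GRIA3 and GRIA4 are lowest in parental cells.

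The comparison of ZMYND8 overexpression with parental cells asked what an excess of ZMYND8 changes in ATRA-treated cells. The parental cells are labelled with Dox and with no construct. Transduction and drug selection therefore cannot be told apart from the excess of ZMYND8. RNA of the obligatory NMDA subunit GRIN1, of 3 further NMDA subunits and of the AMPA subunits GRIA2, GRIA3 and GRIA4 was higher with overexpression. GRIN2D and GRIA1, the most abundant NMDA and AMPA members of parental cells, did not pass the test. A gene passed at a Benjamini-Hochberg adjusted p below 0.05 over all genes tested (edgeR's quasi-likelihood test), and calls further required a log2 fold change of 1 or more in size and more than 20 normalized counts on average. GRIN2B had too few counts to be tested. Of the 9 members tested, 7 were called higher and none lower, where 11.8% of the 20835 genes tested were called higher. Among the 7, GRIN2A, GRIN3A and GRIA4 reached the filter on low counts only through the overexpression libraries, so they had to differ and are given by their values. Of the other 6 tested members, 4 passed as higher, against 31.7% of all genes, and all 4 were called. The median log2 fold change was 0.03 over all genes tested. In total RNA of a culture, more cells with a transcript and more transcript per cell cannot be told apart.

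GRIN1, without which no NMDA receptor reaches the surface, had 20 and 19 counts in parental and 553 and 513 in overexpression libraries. The groups lay far apart, with a log2 fold change of 4.72 (SE 0.179, adjusted p = 4.76e-09, edgeR). GRIN2A, the GRIN2 subunit that prevails at mature synapses, was at 0 counts in parental cells, with 349 and 328 in overexpression libraries. Set against 3 counts per parental library, it was at least 108-fold higher. GRIN2B, the GRIN2 subunit that prevails before birth, was at 0 counts in parental cells too, with 6 and 8 in overexpression libraries, at least 2-fold higher and below the filter on low counts. Without that filter and with DESeq2 it passed as higher (adjusted p = 0.00612 and 0.0429), at a mean of 3.52 and 3.48 normalized counts. Its counts were the lowest of the members in overexpression cells. GRIN2C, best known from cerebellar granule cells, had 24 and 32 counts in parental and 69 and 78 in overexpression libraries. Its log2 fold change was 1.36 (SE 0.269, adjusted p = 0.00129, edgeR), the smallest among the called members. GRIN3A, which lowers the calcium permeability of NMDA receptors, had 0 and 4 counts in parental and 76 and 49 in overexpression libraries. The ratio of the summed counts was 30.1 with a counting interval of 11.5 to 112. Its fitted log2 fold change of 4.83 rested on 1 parental library, and was 3.98 without parental replicate 1 and 8.90 without parental replicate 2.

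GRIN2D, a subunit of slowly closing NMDA receptors, had 572 and 772 counts in parental and 649 and 580 in overexpression libraries. The log2 fold change was -0.16 (95% interval -0.37 to 0.05, adjusted p = 0.157, edgeR). The interval leaves room for a small fall, and none for a rise like those of the called members. GRIN2D has the highest GC content of the members, 69.0% over its transcripts in GENCODE release 44. After correction for gene length and GC content its log2 fold change was -0.87 (adjusted p = 1.70e-05, edgeR), which passed.

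Of the AMPA members, GRIA2 had 21 and 18 counts in parental and 519 and 656 in overexpression libraries, a log2 fold change of 4.88 (SE 0.270, adjusted p = 8.32e-08, edgeR). This is the subunit that sets the low calcium permeability of most AMPA receptors. GRIA3 had 26 and 17 counts in parental and 542 and 418 in overexpression libraries, a log2 fold change of 4.42 (SE 0.212, adjusted p = 2.77e-08, edgeR). GRIA4, whose receptors have fast kinetics, had 7 and 2 counts in parental and 251 and 216 in overexpression libraries. The ratio of summed counts was 50.0 with a counting interval of 26.1 to 110, and the fitted log2 fold change was 5.61. That value moved to 6.85 without parental replicate 1 and 4.84 without parental replicate 2. GRIA1, a subunit that is delivered to synapses during plasticity, had 67 and 89 counts in parental and 85 and 59 in overexpression libraries, so that the groups overlapped. Its log2 fold change was -0.16 (95% interval -0.63 to 0.30, adjusted p = 0.524, edgeR). With the trend over genomic span taken out, it was -0.71 (adjusted p = 0.0131, edgeR), which passed as lower. The GRIA genes thus divided into 3 that were called higher and 1 whose libraries overlapped.

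The comparison of ZMYND8 knockdown with KD control cells asked what a reduction of ZMYND8 changes in ATRA-treated cells. ZMYND8 RNA fell only in part, with a log2 fold change of -0.94, and neither group is labelled with Dox. GRIN2D RNA was lower in the knockdown, and no other member passed the test. GRIN2A, GRIN2B and GRIN3A had too few counts to be tested. Of the 7 members tested, 1 passed as lower, against 10.8% of the 19789 genes tested, and none as higher, against 13.4%. None of them was called, where 1.96% of all genes were called in either direction. At an unadjusted p below 0.05 there was again 1 member, GRIN2D, and DESeq2 also called none. The median log2 fold change was -0.11 for the 7 members and -0.01 for all genes.

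GRIN2D had 586 and 630 counts in KD control and 409 and 441 in knockdown libraries, with no overlap. Its log2 fold change was -0.47 (SE 0.0979, adjusted p = 0.00590, edgeR), and after correction for length and GC content it was -0.31 (adjusted p = 0.0436, edgeR). GRIN2C had 16 and 14 counts in KD control and 7 and 7 in the knockdown libraries. These also stood apart, but at so few counts the log2 fold change of -1.04 (95% interval -2.12 to 0.05) had an adjusted p of 0.154 (edgeR). GRIN1 had 161 and 169 counts in KD control and 145 and 117 in the knockdown libraries, a log2 fold change of -0.28 (95% interval -0.66 to 0.09, adjusted p = 0.263, edgeR). GRIN2A had 0 and 1 counts in KD control and 2 and 0 in the knockdown libraries. GRIN2B and GRIN3A had no counts in these 4 libraries, which allows up to 0.0571 CPM and 0.0542 CPM in the KD control and 0.0573 CPM and 0.0576 CPM in the knockdown libraries for each gene. These limits and the counting intervals cover counting error only.

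No AMPA member passed the test in the knockdown. GRIA3 had 524 and 586 counts in KD control and 538 and 589 in the knockdown libraries, and its log2 fold change of 0.07 had a 95% interval of -0.15 to 0.29 (adjusted p = 0.646, edgeR). GRIA1 had 65 and 73 against 77 and 63 counts, with a log2 fold change of 0.07 (95% interval -0.40 to 0.54). The libraries of both genes overlapped. GRIA2 had 81 and 151 against 90 and 117 counts, and its log2 fold change of -0.11 (95% interval -0.69 to 0.47) turned to 0.36 without KD control replicate 2. GRIA4 had 13 and 26 against 25 and 23 counts, and its log2 fold change of 0.35 (95% interval -0.50 to 1.2) turned to -0.04 without KD control replicate 1.

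**Figure D2:**
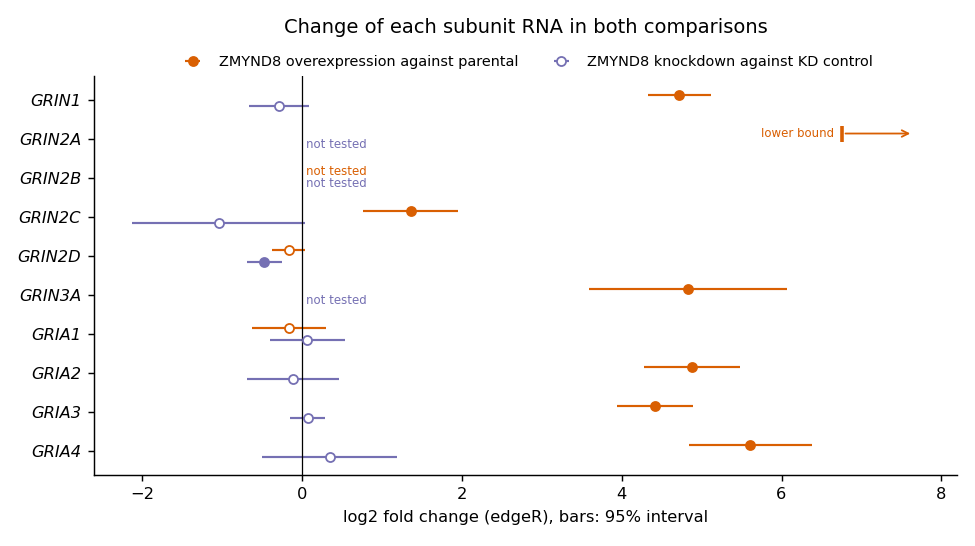
Log2 fold change of each subunit gene in both comparisons, with the 95% interval as a bar and filled points for genes that passed the test. GRIN2A is drawn at its lower bound of 108-fold. Apart from GRIN2D and GRIA1, the tested members lie above 1 in overexpression, and the only filled point of the knockdown is GRIN2D at -0.47.

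The difference between the overexpression effect and the knockdown effect was tested over all 8 libraries. GRIN1, GRIN2A, GRIN2C, GRIA2, GRIA3 and GRIA4 passed, with the overexpression effect above the knockdown effect, as did 24.6% of the 22619 genes tested. GRIN2A was at 0 in parental cells and GRIA4 under the filter there, and 4 of the 6 tested members besides these and GRIN3A passed. The differences on the log2 scale were 5.00 (SE 0.257) for GRIN1, 2.39 (SE 0.502) for GRIN2C, 4.98 (SE 0.429) for GRIA2, 4.34 (SE 0.235) for GRIA3 and 5.25 (SE 0.573) for GRIA4. The value of GRIA4 was 6.51 without parental replicate 1 and 4.50 without parental replicate 2. GRIN2A had 3 counts in the 4 libraries of the knockdown experiment, so no size is given, and without KD control replicate 2 it did not pass. GRIN3A gave no usable value, because it had no counts there. For GRIA1 the difference was -0.24 (95% interval -0.88 to 0.39, adjusted p = 0.540, edgeR). For GRIN2D it was 0.30 (adjusted p = 0.0887, edgeR), and after correction for length and GC content it reversed to -0.54 (adjusted p = 0.00437, edgeR).

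The control groups had different levels of several members. They came from different experiments, of which 1 had Dox, so experiment and group cannot be told apart and no test was made. GRIA3 was 21.9-fold higher in KD control than in parental cells, at a mean of 10.3 against 0.471 CPM. KD control cells thus had about as much GRIA3 RNA as overexpression cells, whose mean was 9.79 CPM, and the libraries of these groups overlapped. GRIN1 was 7.30-fold and GRIA2 5.07-fold higher in KD control than in parental cells. Both lay below the overexpression cells, which had 3.59 times the GRIN1 and 5.75 times the GRIA2 level of KD control cells. GRIA4 had a mean of 0.359 CPM in KD control and 0.102 CPM in parental cells, and overexpression cells had 13.4 times the KD control level. GRIN2C went the other way, with 0.279 CPM in KD control and 0.592 CPM in parental cells. GRIN2D and GRIA1 differed less, at 0.793 and 0.775 times the parental level. GRIN2A, GRIN2B and GRIN3A were at 0 or at 1 count in the KD control libraries. Against KD control cells, the GRIA3 level of overexpression cells was 0.952-fold, where it was 21.3-fold in the fit against parental cells.

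The shares of the subunits in the summed RPKM of the 6 NMDA or the 4 AMPA members describe the RNA, not assembled receptors. GRIN3B, an NMDA subunit that is not among the members, is left out of these sums. GRIN2D made up 96.0% ± 0.146 (SD, n = 2) of the NMDA members' RNA in parental cells and 58.2% ± 0.50 in overexpression cells. GRIN1 went from 1.42% ± 0.348 to 25.1% ± 0.448, and GRIN2A from no counts to 8.76% ± 0.237. With GRIN3B in the sum, GRIN2D made up 83.6% ± 1.37 in parental and 48.8% ± 1.49 in overexpression cells, and GRIN3B itself 13.0% ± 1.29 and 16.1% ± 1.84. GRIN3B held 1.66% ± 1.14 in KD control and 2.00% ± 0.689 in knockdown cells. Per length of the longest coding transcript and without GRIN3B, GRIN2D held 91.7% ± 0.533 in parental and 41.0% ± 0.739 in overexpression cells, and GRIN1 3.15% ± 0.757 and 41.1% ± 0.345. The ratio of GRIN1 to the summed GRIN2 subunits was 0.0170 and 0.0120 in parental and 0.350 and 0.356 in overexpression libraries. In KD control cells it was 0.135 and 0.132, and in knockdown cells 0.174 and 0.131. Per coding transcript length it was 0.734 and 0.736 in the overexpression libraries. RNA of the obligatory subunit was thus below the sum of its GRIN2 partners in every library by both lengths.

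Among AMPA subunits, GRIA1 held 63.4% ± 10.7 (SD, n = 2) of the RNA in parental cells and 5.51% ± 1.17 in overexpression cells. GRIA2 held 13.4% ± 1.86 and 38.3% ± 7.97, and GRIA3 held 20.5% ± 6.65 and 42.8% ± 5.96. In KD control and knockdown cells GRIA3 held 78.3% ± 3.80 and 78.9% ± 0.578, and GRIA2 11.6% ± 3.57 and 10.5% ± 1.35. The GRIA2 share of the overexpression libraries, 32.7% and 43.9%, lay above the 9.08% to 14.7% of the other 6 libraries. The summed AMPA level was 0.349 ± 0.0376 RPKM in parental, 3.55 ± 0.348 in overexpression, 2.03 ± 0.185 in KD control and 2.11 ± 0.128 in knockdown cells. The summed level of the 6 NMDA members was 2.90 ± 0.209 RPKM in parental and 4.26 ± 0.303 in overexpression cells, a smaller difference than that of the AMPA sum. It was 2.54 ± 0.0283 RPKM in KD control and 1.86 ± 0.0537 in knockdown cells, where the AMPA sum differed by less.

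**Figure D3:**
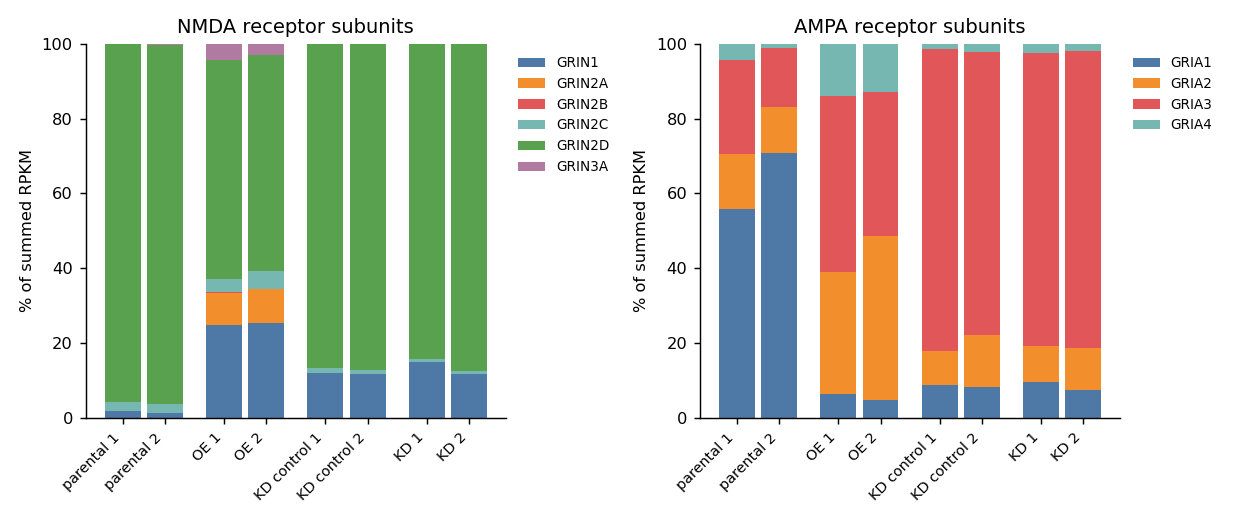
Share of each subunit in the summed RPKM of the 6 NMDA members, without GRIN3B (left), and the 4 AMPA members (right), in percent, with 1 stacked bar per library (OE, ZMYND8 overexpression; KD, ZMYND8 knockdown). GRIN2D fills most of each NMDA bar, least in overexpression at 57.8% and 58.5%, and the largest AMPA share passes from GRIA1 in parental cells to GRIA3 in the KD control and knockdown libraries.

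The genes of most similar pattern were sought for the NMDA and the AMPA member with the highest mean RPKM over the 8 libraries, among 13531 genes with a mean normalized count above 100. The measure was the root mean square difference of log2(CPM + 0.5) after centring, with no test. For GRIN2D the nearest were TMEM70 (0.0517), ORAI3 (0.0521), MAML1 (0.0532), SHFL (0.0548) and TTC19 (0.0564). For GRIA3 they were PLD5 (0.0983), EPB41L4A (0.148), SYN1 (0.161), PAPPA2 (0.162) and TSPAN18 (0.163). The 8 libraries fall into 4 groups of replicates, so that few independent points stand behind this likeness.

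The rest of the glutamate system was described with 8 lists of 114 genes. With overexpression, 31.7% of all genes tested passed as higher and 29.1% as lower, and 11.8% and 6.84% were called. In the knockdown 13.4% passed as higher and 10.8% as lower, and 1.96% were called in either direction. In all, 51 of the 114 listed genes, not all of which were tested, were called higher with overexpression. They include genes that reached the filter only through overexpression, as counted below, so their number is a description only. Of the 51, 10 had overexpression libraries that did not all lie above both KD control libraries. KD control cells had counts near those of overexpression cells for GRIK4 (296 and 364), CACNG2 (294 and 326), and OLFM3 (221 and 246), and between those of parental and overexpression cells for SHANK1 (1069 and 1164). Those of the other glutamate receptor genes that were tested all passed as higher with overexpression. Of 8 listed genes of kainate and delta subunits and GRIN3B, 7 were tested, 7 passed as higher and 5 were called, with a median log2 fold change of 2.61. GRID1 (4 and 8 against 171 and 137 counts) had a log2 fold change of 4.61, GRIK4 (19 and 47 against 291 and 327) of 3.21, and GRIK3 (1 and 4 against 24 and 67) a count ratio of 17.5 with an interval of 7.24 to 55.3. The call of GRIK3 needed the second overexpression library. Of 8 metabotropic receptors, 7 were tested and all 7 were called higher, with a median of 4.0, or 3.93 with GRM4 at its bound. GRM4 was at least 15-fold higher, GRM3 went from 0 and 2 to 403 and 306 counts, and GRM2 had a log2 fold change of 4.09. In these lists 3 of 7 and 4 of 7 tested genes reached the filter only through overexpression, among them GRID1, GRIK3, GRM2, GRM3 and GRM4. In the knockdown GRM8, a presynaptic group III receptor, was called lower, with 43 and 34 counts in KD control and 15 and 13 in knockdown libraries (log2 fold change -1.40, adjusted p = 0.0113, edgeR). It was not called without KD control replicate 1 or with DESeq2. Of the other tested receptor genes, only GRIK2 passed, as higher.

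Proteins that assemble AMPA receptors and steer their gating moved in both directions. Of 21 listed, 19 were tested, 12 passed as higher and 5 as lower (against 29.1% of all genes), and 8 were called higher and 2 lower (against 6.84%), with a median log2 fold change of 2.05. SHISA7 (log2 fold change 5.16) and the stargazin gene CACNG2 (8 and 19 against 358 and 318 counts, 4.60) were higher. SYNDIG1, which promotes excitatory synapse formation, had 2 and 0 against 39 and 53 counts. The cornichon gene CNIH3 fell from 1951 and 2568 to 325 and 261 counts (-2.99), and NETO2, an auxiliary subunit of kainate receptors, had a log2 fold change of -1.80. In the knockdown, 2 of 15 tested passed as higher (against 13.4%) and 4 as lower (against 10.8%), with none called. In 6 of the 19 tested with overexpression, SHISA7 and SYNDIG1 among them, both parental libraries lay under the filter. CACNG2 lay under it in parental replicate 1 alone, so it also needed an overexpression library to be tested.

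Among 25 scaffold and trafficking proteins, 24 were tested, with a median of 0.52. Of these, 13 passed as higher (against 31.7% of all genes) and 6 as lower (against 29.1%). Called were 11 as higher (against 11.8%) and 1 as lower (against 6.84%). Of the 24, 3 reached the filter only through overexpression, DLGAP1 and LIN7A among them. SHANK1, a master scaffold of the postsynaptic density, went from 55 and 71 to 1766 and 1633 counts (log2 fold change 4.71). DLGAP1 had 3 and 1 against 108 and 78 counts and LIN7A 1 and 0 against 79 and 53. The call of LIN7A was lost without overexpression replicate 1, and those of SYNDIG1, GRM4 and C1QL3 in the other lists without either overexpression library, where the mean count lay at or under 20. DLG1, a scaffold of GRIA1, was called lower at -1.08, and was -1.0 and no longer called with upper quartile normalization. In the knockdown 4 of 22 passed as higher (against 13.4% of all genes) and 1 as lower (against 10.8%), with none called.

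Of 18 kinases, phosphatases and Ras regulators of the postsynapse, 10 passed as higher (against 31.7% of all genes) and 6 as lower (against 29.1%) with overexpression. Called were 5 as higher (against 11.8%) and 2 as lower (against 6.84%), and the median was 0.21. Of the 18, 3 had both parental libraries under the filter on low counts. Genes with a single parental library under it also needed an overexpression library to be tested, and are not in this count. Of the protein kinase C genes, PRKCB (log2 fold change 5.74) was called higher and PRKCA (-1.39) lower. PRKCB had 13 and 7 counts in parental and 587 and 531 in overexpression libraries, and its parental replicate 2 lay under the filter. CAMK2A, an effector of NMDA receptor calcium, was lower at -1.52, from 38 and 55 to 16 and 17 counts. RASGRF1, an exchange factor that couples NMDA receptors to Ras, was called higher in the knockdown. RASGRF1 is 1 of the 3 genes with both parental libraries under the filter, so with overexpression it had to differ and is given by its counts. It had 1 and 5 against 103 and 73 counts with overexpression, and 12 and 17 against 50 and 33 counts in the knockdown (log2 fold change 1.56, adjusted p = 0.00850, edgeR). The call in the knockdown was lost without KD control replicate 1. In all, 4 of 17 tested passed as higher in the knockdown (against 13.4% of all genes) and 1 as lower (against 10.8%).

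The secreted proteins that cluster glutamate receptors had 14 tested of 15, all 14 passing as higher, 11 of them called, and a median of 2.67. Of these 14 genes, 5 reached the filter only through overexpression, so they had to differ. CBLN1, OLFM3 and C1QL3 are among the 5 and are given by their values. CBLN1, which binds delta receptors, had 8 and 5 against 227 and 193 counts and OLFM3 8 and 9 against 289 and 233. C1QL3 was at least 13-fold higher. In the knockdown 2 of 12 passed, both as lower (against 10.8% of all genes). Of 16 genes of glutamate and D-serine handling, 12 were tested, with a median of 0.37. Of these, 6 passed as higher (against 31.7% of all genes) and 5 as lower (against 29.1%), and 3 were called higher (against 11.8%). Of the 12, 3 reached the filter only through overexpression, SLC1A2 among them. The called genes were the transporters SLC1A2 (log2 fold change 3.81) and SLC1A1 (1.76) and the vesicular transporter SLC17A7 (3.09). In the knockdown 3 of 10 passed as higher (against 13.4%) and 1 as lower (against 10.8%). Of the 3 RNA editing enzymes, ADARB2 went from 0 and 1 to 71 and 69 counts and reached the filter only through overexpression. ADAR (-0.60) and ADARB1 (-0.34), the enzyme that edits GRIA2, passed as lower. ADARB1 passed as higher in the knockdown, with 983 and 976 against 1461 and 1411 counts. ADAR and ADARB1 were chosen for naming after their values had been seen.

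**Figure D4:**
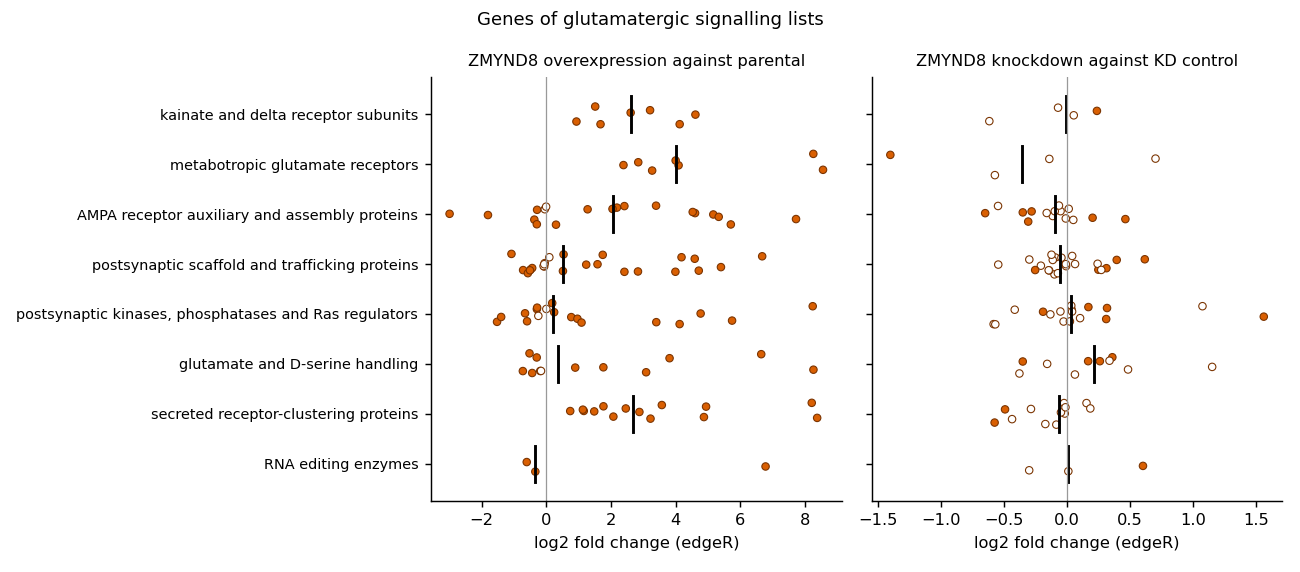
Log2 fold changes of the genes of 8 glutamate signalling lists in the overexpression (left) and knockdown comparison (right), with filled points for genes that passed the test and a bar at the median of each list. Points of genes with 0 counts in both control libraries are fitted values and no bounds. The medians reach 4.0 for metabotropic receptors in overexpression and stay between -0.36 and 0.21 in the knockdown.

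Markers of both neuroblastoma programs and of other cell types also differed between groups, in both directions, and their part in the results was not tested. With overexpression 8 of 9 tested adrenergic markers passed as higher and 1, TBX2, as lower. Of 10 mesenchymal markers 9 passed as lower and 1, TWIST1, as higher, where 31.7% of all genes passed as higher and 29.1% as lower. In the knockdown 5 of 8 adrenergic markers passed as lower and none as higher. Of the mesenchymal markers 6 of 10 passed as higher and 2, PRRX1 and SNAI2, as lower, against 13.4% and 10.8% of all genes. The summed level of 6 glutamatergic neuron markers was 1.74 to 2.09 CPM in parental, 9.20 to 9.78 in overexpression, 0.780 to 0.994 in KD control and 1.75 to 1.95 CPM in knockdown libraries, and SLC17A6 and NEUROD6 were at 0 in all. The summed level of 5 GABAergic markers was 0.174 to 0.282, 3.81 to 4.57, 0.799 to 0.904 and 1.25 to 1.28 CPM in the same order. GAD2 and SLC32A1 had 0 counts outside overexpression, where they had 82 and 50 and 62 and 105. Of 5 astrocyte markers, ALDH1L1 (1 and 1 against 63 and 73 counts), SLC1A2 and AQP4 (0 and 0 against 13 and 11) passed as higher with overexpression, 3 of the 5 lay under the filter in parental cells, and GJA1 (5700 and 6959 against 1909 and 1286) passed as lower. GJA1 made up most of their sum, which was 135, 33.8 to 38.5, 33.7 to 35 and 37.4 to 38.8 CPM. The 7 oligodendrocyte and Schwann cell markers summed to 21.4 to 22.6, 7.98 to 8.35, up to 20.2 and 23.8 to 25.4 CPM, with MOG at 0. The 5 leukocyte markers summed to at most 2.23 CPM in any library, with AIF1 at 0. In the knockdown DLX2 of the GABAergic list was called higher (14 and 19 against 36 and 29 counts), as it was in 5 of 13 alternatives. The only marker of the last 3 lists that was called in the knockdown was CSF1R, from 32 and 37 to 103 and 110 counts.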

How the data were processed

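RNA of 8 SK-N-SH libraries, 2 per group, was analysed, grouped by sample title and treatment. Reads had been quality-trimmed, aligned with Hisat2 (GRCh38) and assigned to GENCODE genes by featureCounts, and the authors deposited the resulting raw counts. The strand setting is not given in the sources used here. Of 60662 lines, 3 split lines were left out. Symbols came from GENCODE release 44 (60418 of 60659 identifiers).

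Each comparison was fitted over all genes of its own 4 libraries with filterByExpr, TMM and the two-sided quasi-likelihood test of edgeR 4.0.16 (with limma 3.58.1 under R 4.3.3) and Benjamini-Hochberg adjustment. The difference of effects used all 8 libraries. Alternatives were RLE and upper quartile normalization, no filter, DESeq2 1.42.0, a replicate block, loess corrections (span 0.5) for length and GC content or genomic span, all 8 libraries in 1 fit, an adjusted p alone, another gene length, GRIN3B in the NMDA sum (added after seeing the data), total-count scaling, and leaving out each library. With 2 libraries per group, a group reduced to 1 library is assumed to vary like the others. The fits were tested on simulated counts. Folds against groups at 0 counts are bounds against 3 counts per library, and intervals of count ratios are exact 95% binomial ones.

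All members are described. From each other list, at most 3 called genes per direction and comparison with the largest fold change are named. Some genes that this rule or the marker lists hold are not reported here. The members, lists and rules were chosen with earlier results of these data known. Promoter sequences are from RefSeq.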

Additional observations from a re-analysis of the deposited data

How the results depend on the processing

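With 2 libraries per group, and few counts for several members in the control groups, the precision of single values is limited. In overexpression 7 members were called higher under all alternatives except without overexpression replicate 1, which gave 6 because the mean of GRIN3A dropped to 20 or below (range over left-out libraries 6 to 7). With no filter and with DESeq2, 8 members passed as higher, GRIN2B among them. The number passing as lower was 0, and became 1 with the length and GC correction, with and without the replicate block (GRIN2D, -0.86 and -0.87), and 1 with the genomic span correction (GRIA1). In the knockdown 0 members were called, and 1 with the adjusted p alone. The difference of effects passed as higher in 6 members, and in 5 to 6 without single libraries. It passed as lower in 0, and in 1 with the length and GC correction, with and without the replicate block, where GRIN2D reversed from 0.30 to -0.54 and -0.54. That correction changes the values along length and GC content by its construction. For GRIN2D the difference passed at 0.37 with upper quartile normalization and 0.41 with the genomic span correction. Per longest coding transcript, 6 of 10 members kept their rank by mean RPKM over all libraries, and the GRIN2D share in parental cells was 91.7% against 96.0%. With GRIN3B added to the sum, an alternative chosen after seeing the data, it was 83.6%. The GRIA2 share in overexpression cells was 42.3% against 38.3%. In the other glutamate lists 46 to 54 genes were called higher and 5 lower in overexpression without single libraries, and 0 to 1 in each direction in the knockdown, with 0 without KD control replicate 1. Deviations of libraries with the same replicate number correlated by 0.014 in overexpression and 0.052 in the knockdown, so the numbers were not taken to pair the samples. The replicate block moved calls in overexpression from 3876 to 3886 of all genes and ended no call of a member.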
